A study of Mus musculus with 3 samples.

Results

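The autophagy gene promoters examined here are those of 35 mouse genes that encode the core machinery of autophagosome formation, together with 3 cargo receptors and the regulator Tfeb. They were selected on a list of gene names and then divided by the readout itself: a gene was counted as bound when a NR2F2 peak lay within 1 kb of one of its transcription start sites (TSS) in the curated RefSeq annotation. By that rule 13 of the 35 genes were bound (37.1%), through 15 of the 10069 peaks of the series. The same rule found a peak at 5894 of 21000 protein-coding genes (28.1%). Presence of a peak and ChIP counts are therefore the values that chose these peaks, and they are given as a description without a test of binding.

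Chromatin immunoprecipitation with an antibody to NR2F2 (COUP-TFII), followed by sequencing (ChIP-seq), was performed on E14.5 testes of CD-1 mice, dissected away from the mesonephros, the neighbouring embryonic kidney. CD-1 is an outbred stock, and no allele or treatment distinguished the samples. The 2 ChIP libraries were separate experiments by a service laboratory, for which 30 testes were pooled and 18 µg of sheared chromatin was used, and 1 input library of chromatin without immunoprecipitation served as background. Each pool holds every cell type of the organ, so the fraction of cells behind a peak is unknown, and the counts measure no expression against which the tissue label could be checked.

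Autophagy encloses cytoplasm in a double membrane, the autophagosome, which fuses with the lysosome. The ULK kinase complex starts the process and the class III phosphatidylinositol 3-kinase marks the membrane with PI3P. Lipids are brought in through ATG9 and ATG2, and 2 ubiquitin-like conjugation systems attach ATG8 proteins such as LC3 and GABARAP to the growing membrane. NR2F2 is an orphan nuclear receptor that binds repeats of the hexamer AGGTCA and is known in mesenchymal cells, including those of the testis interstitium.

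Every library was counted in identical 300 bp intervals (mm10). Summed over all peaks, the input held 73251 reads, and the ChIP libraries held 426784 (replicate 1) and 364261 (replicate 2). At the 15 autophagy gene peaks the input counts ran from 0 to 11 with a median of 6, replicate 1 from 16 to 84 with a median of 37, and replicate 2 from 13 to 85 with a median of 34. The 5654 promoter peaks of protein-coding genes had medians of 7, 40 and 33 in the same order. The medians of the autophagy gene peaks were within 3 counts of these. ChIP counts were above the input count at each of the 15 peaks in both replicates, which the selection of peaks on ChIP reads favours.

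The sequences of the 3 peaks with the highest summed ChIP count are shown first, because they are the strongest at these promoters. Each is the longest stretch of its peak outside the exons of RefSeq transcripts, read from the GRCm38 reference (the mm10 assembly) on the strand of the gene, and capitals mark the nuclear receptor hexamer AGGTCA on either strand. The Ulk2 stretch ends 1 base upstream of the start site and holds 1 hexamer near its distal end. The Atg10 stretch lies in the first intron and holds a hexamer in reverse orientation. The Atg2a stretch, which also ends 1 base before the start, holds none.
Ulk2, chr11:61855093-61855370, minus strand: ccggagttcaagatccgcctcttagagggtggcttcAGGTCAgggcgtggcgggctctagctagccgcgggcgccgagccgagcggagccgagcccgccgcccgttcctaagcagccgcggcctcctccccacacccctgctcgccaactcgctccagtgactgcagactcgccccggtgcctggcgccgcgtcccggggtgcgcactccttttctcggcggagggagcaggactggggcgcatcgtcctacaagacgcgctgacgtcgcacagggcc
Atg10, chr13:91223706-91223938, minus strand: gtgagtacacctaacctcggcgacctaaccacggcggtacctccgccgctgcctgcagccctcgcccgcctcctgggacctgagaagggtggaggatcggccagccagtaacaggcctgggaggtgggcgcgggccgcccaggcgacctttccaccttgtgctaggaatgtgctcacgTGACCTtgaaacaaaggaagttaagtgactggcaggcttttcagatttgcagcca
Atg2a, chr19:6241445-6241667, plus strand: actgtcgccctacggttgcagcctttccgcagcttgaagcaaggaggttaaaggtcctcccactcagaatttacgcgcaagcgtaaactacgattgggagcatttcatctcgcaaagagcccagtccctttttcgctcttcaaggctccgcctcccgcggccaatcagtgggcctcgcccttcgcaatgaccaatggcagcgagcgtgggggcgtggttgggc

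The hexamer was the commonest of the motifs searched. AGGTCA occurred on either strand in 6 of the 15 autophagy gene peaks (40.0%), namely at Ulk2 (the peak at the TSS), Rb1cc1, Pik3r4, Atg10, Gabarap and Gabarapl1. It occurred in 25.4% of promoter peaks of protein-coding genes, in 37.7% of the 10064 peaks on placed chromosomes and in 14.4% of 20488 promoter windows of protein-coding genes of the same length. The longer NR2F2 motif, searched as AGAGGTCA or AGGGGTCA, was found in 0 of the 15 peaks. It was found in 6.07% of promoter peaks, in 10.5% of all peaks, in 16.4% of peaks over 1 kb from any TSS and in 2.17% of promoter windows. At 15 peaks these shares rest on few sites, and a match describes letters in a window and not a bound site.

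The hexamers of 5 of these 6 peaks, all but Rb1cc1, are shown in windows of 30 bases on the strand of the gene, to set their surroundings side by side, with the hexamer in capitals.
Ulk2, chr11:61855317-61855346, minus strand: gagggtggcttcAGGTCAgggcgtggcggg
Pik3r4, chr9:105642972-105643001, plus strand: caacaggaagtgAGGTCAacccggaggctt
Atg10 near the start, chr13:91223942-91223971, minus strand: gccgccggctccAGGTCAgggcgagcgagc
Atg10 in the intron, chr13:91223743-91223772, minus strand: aatgtgctcacgTGACCTtgaaacaaagga
Gabarap, chr11:69991032-69991061, plus strand: cgcccttttctgAGGTCAcatgattttatc
Gabarapl1, chr6:129532783-129532812, plus strand: ggtgccaggcaaAGGTCAaaatgcaagcac
The hexamers of Gabarapl1 and Gabarap lay 8 and 21 bp from the centres of their peaks. That of Pik3r4 lay 35 bp from the peak centre, at position -8.5 bp relative to the start site. The others lay farther out, at 72 bp for Rb1cc1, 98 bp for the Atg10 intron and 111 bp for Ulk2, with the Atg10 hexamer near the start between the last 2.

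Atg10 was the only autophagy gene peak with the letters TCACGTGA, an E-box form found in the CLEAR element that TFEB recognises at lysosomal genes. That is 1 of 15 peaks, beside 1.75% of promoter peaks and 1.27% of promoter windows. The E-box overlapped the intronic hexamer by the letters TGA, as the window chr13:91223747-91223776 on the minus strand shows with the E-box in capitals: taggaatgtgcTCACGTGAccttgaaacaa. The ETS motif CCGGAAG was present in 3 peaks (20%), the downstream Ulk2 peak, Rb1cc1 and the upstream Atg2b peak, beside 16.1% of promoter peaks. GCATGCGC (NRF1), TGACGTCA (CRE) and AAGATGGCG (YY1) were in 0 of the 15 peaks, and their shares over promoter peaks were 3.29%, 2.30% and 3.10%. All motifs were searched on both strands, and AGGTCA is contained in AGAGGTCA.

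The position of the peaks around the start sites differed between members. A peak overlapped the TSS at 7 of the 15 peaks (46.7%), those of Ulk2, Rb1cc1, Pik3r4, Atg2a, Atg2b, Atg10 and Atg4c, beside 42.1% of promoter peaks of protein-coding genes. The centre lay upstream of the gene's own start at 7 peaks (46.7%). Promoter peaks, also for the 42.1%, were measured from the nearest start of any gene, and 34.1% of them had an upstream centre. The shares are therefore not like for like. The Atg3 and upstream Atg2b peaks were nearer to other starts, that of Slc35a5 at 221 bp and that of Gskip at 489 bp. Both lay downstream of those starts. Relative to the start, centres ran from -749.5 bp, at the second Atg2b peak, to 733.5 bp, at Map1lc3a. No autophagy gene peak had its nearer edge more than 600 bp from the start, and the members just inside the 1 kb limit were Map1lc3a, with a peak 584 bp from its start, and Atg2b, whose second peak was 600 bp away. Just outside was Atg101, whose nearest peak lay 4404 bp upstream.

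**Figure D1:**
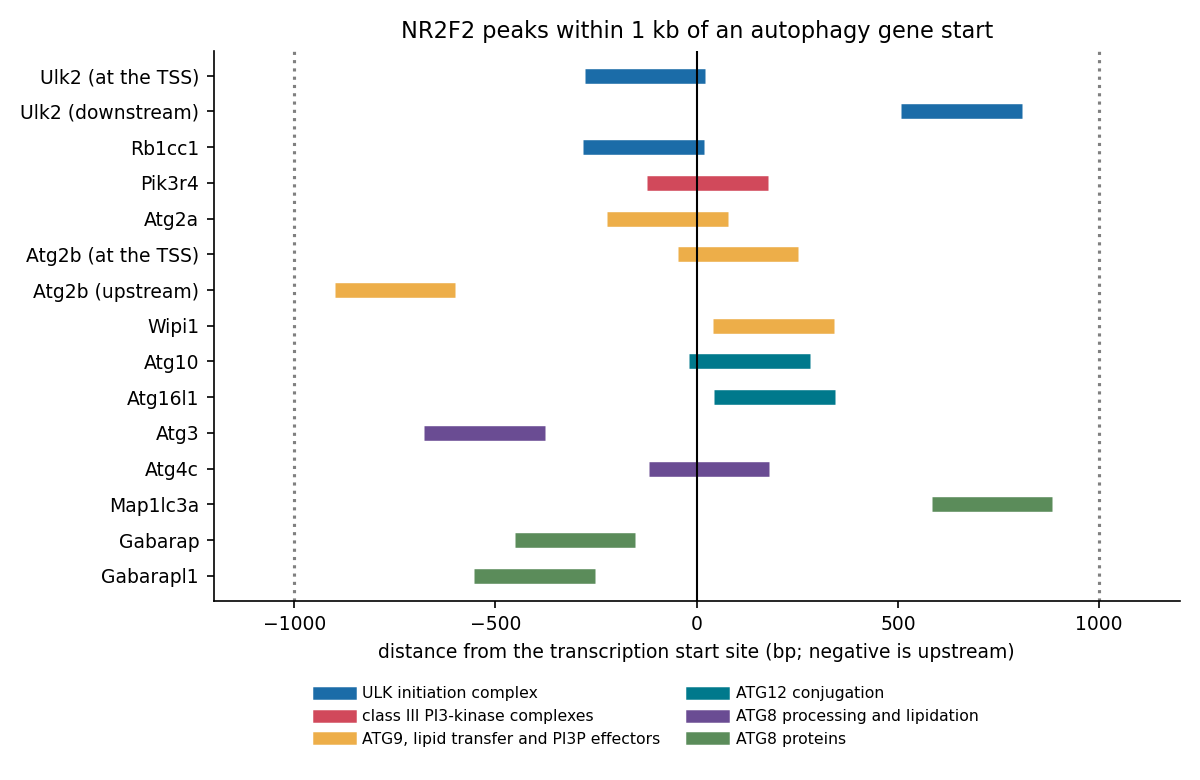
Each bar is a 300 bp peak drawn by its distance in bp from the nearest start site of the gene named at the left, with negative values upstream, dotted lines at 1 kb and colours for the role of the gene. The 7 peaks that overlap the start belong to 7 genes, and the bars reach no farther than 600 bp at their near edge.

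Among the 5 genes of the ULK initiation complex, 2 were bound. Ulk2, a kinase that starts autophagy, had 2 peaks within 1 kb. At the peak over its TSS (gene identifier 29869, chromosome 11, 61855071 to 61855370) the input count was 0, ChIP replicate 1 had 54 counts and replicate 2 had 44. This was the only autophagy gene peak with no input read. Against a floor of 3 input counts per library the ChIP count was at least 18.0-fold higher in replicate 1 and at least 14.7-fold higher in replicate 2, not corrected for depth.

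The other Ulk2 peak, in the first part of the gene with its centre in an intron (chromosome 11, 61854284 to 61854583), had 4 input counts and 37 and 23 ChIP counts. Its ratio of ChIP to input was 9.25 in replicate 1 (95% exact interval 3.32 to 35.7) and 5.75 in replicate 2 (1.96 to 22.9). The intervals are Clopper-Pearson, cover counting error only and overlap widely.

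Rb1cc1 encodes FIP200, the scaffold of the ULK complex. Its peak (12421, chromosome 1, 6214380 to 6214679) overlapped the TSS with its centre at -132.5 bp, and had 7 input counts and 36 and 34 ChIP counts. Both replicates were close, near the median of the autophagy gene peaks. The remaining subunits had no peak within 1 kb: the nearest peak was 29641 bp away for the kinase gene Ulk1, 251874 bp for Atg13 and 4404 bp for Atg101, the last 2 being regulatory subunits. The peak upstream of Atg101 had 21 input counts and 81 and 68 ChIP counts, more input reads than any of the bound peaks and more ChIP reads than all but that of Atg10. Its ratio was 3.86 in replicate 1 (95% exact interval 2.36 to 6.56) and 3.24 in replicate 2 (1.96 to 5.56), with the narrowest intervals because of its input count.

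The class III PI3-kinase complexes had 1 bound gene of 6. Pik3r4 encodes VPS15, the regulatory subunit of the lipid kinase. Its peak (75669, chromosome 9, 105642872 to 105643171) overlapped the TSS with its centre in the 5' UTR, and had 11 input counts, the highest of the autophagy gene peaks, and 48 and 45 ChIP counts. Its raw ratios were accordingly low, 4.36 in replicate 1 and 4.09 in replicate 2. The catalytic subunit Pik3c3 had its nearest peak 257228 bp away. Becn1, the scaffold Beclin 1, had it at 13674 bp, in a promoter of Psme3, a proteasome activator gene. For Atg14 and Uvrag, which define the alternative complexes, the distances were 80540 and 41801 bp, and for the Beclin 1 partner Ambra1 271420 bp, to the same peak as was nearest to Atg13.

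Of the 5 genes for ATG9, lipid transfer and PI3P effectors, 3 were bound. Atg2a and Atg2b encode the bridge-like proteins that carry lipids to the growing membrane. The Atg2a peak (329015, chromosome 19, 6241445 to 6241744) overlapped the TSS and had 6 input counts and 75 and 45 ChIP counts, the second highest sum of the 15. Its ratio was 12.5 in replicate 1 (95% exact interval 5.48 to 35.1) and 7.5 in replicate 2 (3.19 to 21.5). The difference of counts between the replicates was the largest of the 15 peaks.

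Atg2b had 2 peaks, both among the weaker ones. The peak over its TSS (76559, chromosome 12, 105684989 to 105685288), with its centre in the 5' UTR, had 3 input counts and 25 and 20 ChIP counts. The peak 600 bp upstream (105685841 to 105686140), in an intron of the divergent gene Gskip, had 3 input counts and 19 and 16 ChIP counts. With so few input reads the ratio at the TSS peak was 8.33 in replicate 1 with an exact interval of 2.54 to 43.1, and 6.67 in replicate 2 with 1.98 to 35. At the upstream peak it was 6.33 (1.86 to 33.4) and 5.33 (1.53 to 28.6). Both peaks also lay within 1 kb of the start of Gskip, at 64 and 489 bp, so they cannot be assigned to one of the genes.

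Wipi1, which reads PI3P on the membrane, had a peak 41 bp downstream of its start (52639, chromosome 11, 109611049 to 109611348, centre in an intron) with 4 input counts and 34 and 27 ChIP counts. Its paralogue Wipi2 had its nearest peak 71889 bp away. Atg9a, the only transmembrane protein of the core machinery, had it at 11619 bp, in the 5' UTR of Abcb6.

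The ATG12 conjugation genes had 2 bound members of 5. Atg10, the E2-like enzyme that transfers ATG12 to ATG5, held the strongest of the 15 peaks (66795, chromosome 13, 91223706 to 91224005). Overlapping the TSS with its centre in the first intron, it had 4 input counts and 84 and 85 ChIP counts. Its summed ChIP count of 169 was higher than that of 95.4% of promoter peaks of protein-coding genes. The ratio was 21 in replicate 1 (95% exact interval 7.9 to 78.9) and 21.2 in replicate 2 (8.0 to 79.8), and the replicates were nearly identical. A further peak inside Atg10, 162802 bp from its start, had 4 input counts and 13 and 21 ChIP counts and was not counted as a promoter peak.

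Atg16l1, which directs the ATG12-ATG5 conjugate to the membrane, had one of the weakest peaks (77040, chromosome 1, 87756055 to 87756354), 44 bp downstream of its start with its centre in a coding exon. It had 5 input counts, 29 counts in replicate 1 and 13 in replicate 2. The ratio was 5.80 in replicate 1 (95% exact interval 2.22 to 19.2) and 2.60 in replicate 2 (0.870 to 9.31). The latter interval includes equal raw counts, which mark no background level while library depths are unknown. The peak was also within 1 kb of the start of Gm33517. For Atg5, Atg7 (the E1-like enzyme) and Atg12 the nearest peaks lay 153505, 163117 and 64464 bp away.

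ATG8 processing and lipidation had 2 bound genes of 5. Atg3 is the E2-like enzyme that attaches ATG8 proteins to lipid. Its peak (67841, chromosome 16, 45158153 to 45158452) lay 377 bp upstream, in an intron of the divergent gene Slc35a5, whose start was nearer at 221 bp. It had 10 input counts and 43 and 27 ChIP counts. Atg4c, a protease that trims ATG8 proteins, had a peak over its TSS (242557, chromosome 4, 99194028 to 99194327, centre in the 5' UTR) with 7 input counts and 46 and 35 ChIP counts. Its 3 paralogues had no peak within 1 kb, with nearest peaks at 433310 bp for Atg4a, the farthest of all 35 genes, 48666 bp for Atg4b and 22414 bp for Atg4d.

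Among the 5 ATG8 protein genes 3 were bound, and their peaks were away from the start sites. Gabarap had a peak 153 bp upstream (56486, chromosome 11, 69990918 to 69991217), with 7 input counts and 44 and 43 ChIP counts. Gabarapl1 had one 253 bp upstream (57436, chromosome 6, 129532640 to 129532939), in a non-coding exon of 1700101I11Rik, with 6 input counts and 16 and 22 ChIP counts, and also 345 bp from the start of that non-coding gene. Its ratio was 2.67 in replicate 1 (95% exact interval 0.991 to 8.32) and 3.67 in replicate 2 (1.44 to 11.1). The interval of replicate 1 thus includes equal raw counts, which mark no background level because library depths are unknown.

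Map1lc3a, which encodes LC3A, had a peak 584 bp downstream of its start in an intron (66734, chromosome 2, 155276948 to 155277247), with 8 input counts and 32 and 36 ChIP counts. Its ratio was 4.0 in replicate 1 (95% exact interval 1.81 to 10) and 4.5 in replicate 2 (2.06 to 11.2). Map1lc3b, which encodes the widely used autophagosome marker LC3B, had its nearest peak at 11064 bp, and Gabarapl2 at 6835 bp, in Tmem231.

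None of the 3 cargo receptors was bound. Sqstm1 (p62), Nbr1 and Optn had their nearest peaks at 35693, 75400 and 16337 bp. Tfeb, the transcription factor of lysosome and autophagy genes, had its nearest peak at 35558 bp, in an intron of Mdfi. Over the 22 unbound genes the nearest peak lay 4404 to 433310 bp away with a median of 45234 bp. A peak within 10 kb was found for 2 of them, within 50 kb for 12, and 6 had none within 100 kb. Matching values over unbound protein-coding genes were not computed for these distances, so whether they are ordinary is unknown. A peak inside the transcribed gene was found for 0 of the 22 and for 953 of the 15106 unbound protein-coding genes (6.31%), and 22 genes are too few to tell 0 from that share. Reads at the start sites of unbound genes are not in these counts, so they cannot be compared with the bound ones.

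**Figure D2:**
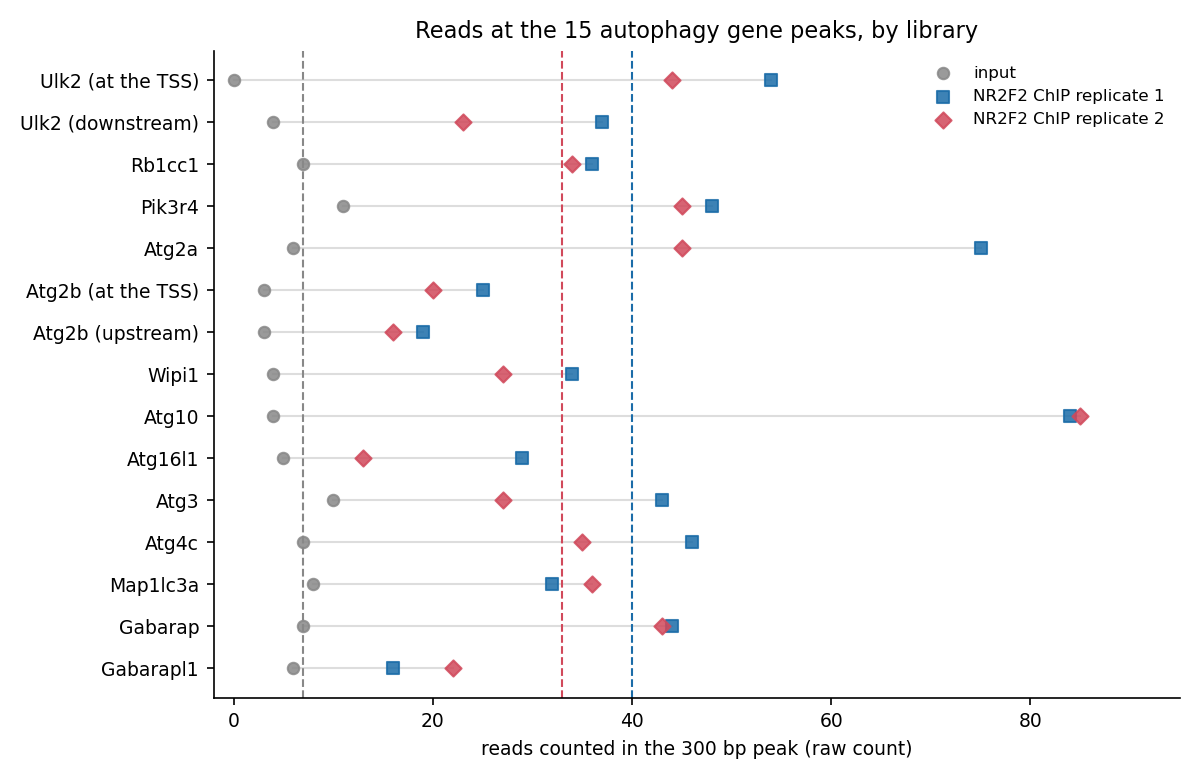
Raw read counts in the 300 bp peak, on a linear axis, for the input (circles), ChIP replicate 1 (squares) and ChIP replicate 2 (diamonds) at the 15 autophagy gene peaks, with dashed lines in the same colours at the medians of promoter peaks of protein-coding genes (7, 40 and 33). Input counts stay at or below 11 throughout, and Atg10 has the highest ChIP counts, 84 and 85.

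The replicates were compared peak by peak with an exact two-sided binomial test against the share of replicate 1 in both totals at peaks. None of the 15 autophagy gene peaks passed an adjusted p of 0.05, and 0 had an unadjusted p under 0.05, where 10 of all 10069 peaks passed after adjustment (0.0993%) and 889 did without (8.83%). The smallest values were those of Atg16l1, with 29 and 13 counts (exact binomial p = 0.0622, adjusted p = 0.60), and Atg2a, with 75 and 45 counts (exact binomial p = 0.0668, adjusted p = 0.611). This test compares the 2 libraries, and at counts of this size only large differences could be detected.

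ChIP over input was then set relative to the typical peak, which does not need the unknown library depths. In this fit by edgeR's quasi-likelihood test, a log2 value of 0 is the ratio of a typical peak of the series. Of the 15 autophagy gene peaks 10 were above 0, beside 3184 of 5654 promoter peaks and 5152 of all 10069 peaks. The median over the 15 was 0.22, with a median of 0.11 over promoter peaks of protein-coding genes and 0.02 over all peaks. The difference between these medians was not tested. Standard errors of the peaks other than that at the Ulk2 TSS ran from 0.50 at Pik3r4 to 0.91 at the upstream Atg2b peak.

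At an adjusted p under 0.05, 2 of the 15 peaks were above the typical ratio and 0 were below, beside 154 (1.53%) and 5 (0.0497%) of all 10069 peaks. The ChIP counts behind these calls also selected the peaks, so the calls are listed as a description. The first was the Ulk2 peak at the TSS, whose log2 ratio was at least 1.70 with the input count set to the floor of 3 (edgeR adjusted p = 0.00414 with the input at 0). The second was Atg10, with a log2 ratio of 2.08 ± 0.59 (SE) and an edgeR adjusted p of 0.0333. Taken from replicate 1 alone the Atg10 value was 1.95 and from replicate 2 alone 2.19. Neither call held with DESeq2's size factors (edgeR adjusted p = 0.10 for Ulk2 and 0.235 for Atg10), and that of Atg10 was lost without a normalization factor (0.0726). The Atg10 log2 ratio itself was 2.05 and 1.96 in these fits.

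The other 13 peaks did not pass, with edgeR adjusted p-values from 0.579 to 1.0. Atg2a was highest among them at 0.99 ± 0.57 (SE, edgeR adjusted p = 0.579), followed by Wipi1 at 0.61 ± 0.72. The downstream Ulk2 peak and the Atg2b peak at the TSS were both at 0.58, with standard errors of 0.72 and 0.84 (edgeR adjusted p = 0.895 and 0.906), and the upstream Atg2b peak was at 0.22 ± 0.91 (0.973). The peaks of the lipid transfer genes and the second Ulk2 peak thus lay above 0 with errors that reach it, except at Atg2a. Gabarap, Atg4c and Rb1cc1 were at 0.32, 0.21 and 0.01. Map1lc3a was at -0.23 ± 0.57 (edgeR adjusted p = 0.955), Pik3r4 at -0.24 ± 0.50 and Atg16l1 at -0.25 ± 0.74 (0.960). The lowest were Atg3 at -0.51 ± 0.53 and Gabarapl1 at -0.64 ± 0.71 (0.866). The Atg101 peak outside the window was at -0.49 ± 0.37 (edgeR adjusted p = 0.739). No step between neighbours in this order, Atg10 included, exceeded the sum of their standard errors. At Atg16l1 the sign depended on the library, 0.11 from replicate 1 alone and -0.82 from replicate 2 alone, and likewise at Rb1cc1, with -0.07 and 0.07.

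**Figure D3:**
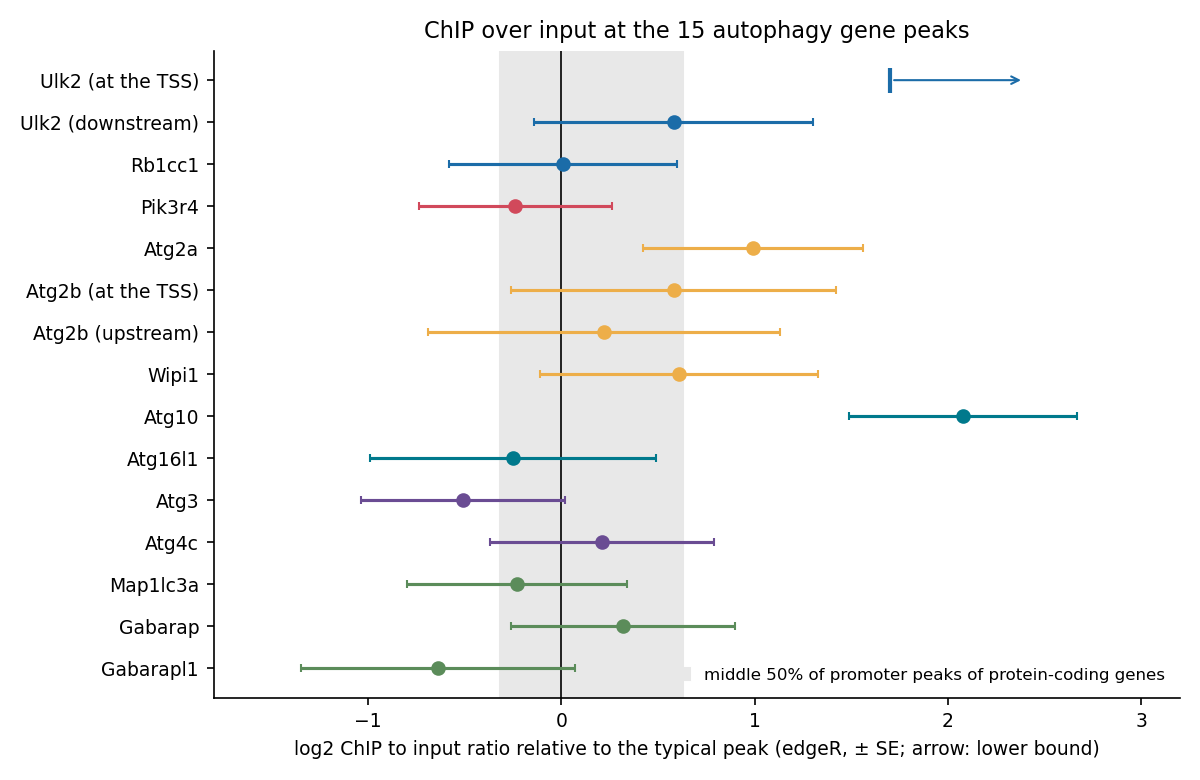
Points are log2 ChIP to input ratios relative to the typical peak, coloured by the role of the gene as in the plot of peak positions. Bars are standard errors derived from the F statistic of the edgeR fit to all 3 libraries. The arrow marks the Ulk2 peak at the TSS, for which only a lower bound of 1.70 is given, and the grey band is the middle 50% of promoter peaks of protein-coding genes (-0.32 to 0.63). Atg10, at 2.08, the Ulk2 bound and Atg2a, at 0.99, lie to the right of the band, and Atg3, at -0.51, and Gabarapl1, at -0.64, to its left.

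Genes around the core machinery were described in the same way. A peak lay within 1 kb of a start at 49 of 90 other genes (54.4%). Lysosome genes had the highest share among the 5 lists, 19 of 27 (70.4%), including the cathepsin genes Ctsa, Ctsb, Ctsd and Ctsl, the cholesterol transporters Npc1 and Npc2 and the calcium channel gene Mcoln1. Of other transcription factors 3 of 5 had a peak (60%), Tfe3, Foxo3 and Zkscan3. Other autophagosome genes had 9 of 17 (52.9%), among them Ulk3, Epg5 and the fusion SNAREs Stx17 and Snap29. Selective autophagy genes had 7 of 15 (46.7%), including the mitophagy genes Pink1, Bnip3l and Fundc1, and nutrient signalling genes 11 of 26 (42.3%), including Rptor of mTORC1 and the Rag GTPase genes Rraga, Rragc and Rragd. These counts stand beside 28.1% of all protein-coding genes and were not tested.

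At the 53 peaks of these 90 genes the median log2 ratio was 0.16, and edgeR's test placed 2 of them above the typical ratio and 0 below at an adjusted p under 0.05 (3.77% and 0%, beside 1.53% and 0.0497% of all peaks and a median of 0.11 over promoter peaks). The ChIP counts selected these peaks too, so this is a description. Atp6v1a, a subunit of the proton pump that acidifies lysosomes, had a peak with 1 input count and 59 and 69 ChIP counts (edgeR adjusted p = 0.00698). This peak lay 587 bp from an annotated start of the gene. Akt1s1, which encodes the mTORC1 inhibitor PRAS40, had a peak with 8 input counts and 135 and 98 ChIP counts, 860 bp from an annotated start. Its log2 ratio was 1.54 ± 0.44 (SE, edgeR adjusted p = 0.0383). Each distance is to 1 start of the gene, which was not checked to be its nearest. Starts of other genes near these peaks were not examined.

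The median base composition of the autophagy gene peaks was close to that of other promoter peaks. Their GC content ran from 47.7% at Gabarapl1 to 72.0% at Ulk2 and Atg16l1, with a median of 66.3%, and the median over promoter peaks was 65.3%. The median number of CpG dinucleotides was 26 per peak beside 25. Peaks over 1 kb from any TSS had medians of 53.3% and 5. A RefSeq promoter window was available for 16853 of the 21000 protein-coding genes. Among these the share with a peak rose with the CpG number of the promoter. It went from 1.57% in the lowest quartile through 18.4% and 43.2% to 51.4% in the highest. Of the 35 autophagy genes 29 had a RefSeq promoter window of 250 bases before to 50 bases after the start, and these fell 1, 7, 11 and 10 to the quartiles from lowest to highest, with 0, 3, 2 and 5 of them bound. Rb1cc1, Becn1, Pik3c3, Atg12, Atg16l1 and Map1lc3a had no window. Since 10 of 13 bound genes had one, short of the 80% required here, promoters of bound and unbound autophagy genes were not compared.

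Shared promoters were examined because a peak between divergent genes counts for both. A divergent start, on the opposite strand and up to 1 kb upstream of the gene's own start, was annotated for 9 of the 35 autophagy genes, of which 3 were bound (33.3%): Atg2b with Gskip, Atg16l1 with Gm33517 and Atg3 with Slc35a5. Of the 26 without one, 10 were bound (38.5%). Over protein-coding genes the shares were 53.3% with and 24.7% without a divergent start. Gabarapl1 was counted among those without one, since the start of the antisense gene 1700101I11Rik lies downstream of its own. The difference between the autophagy genes with and without a divergent start rests on few genes and was not tested.

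**Figure D4:**
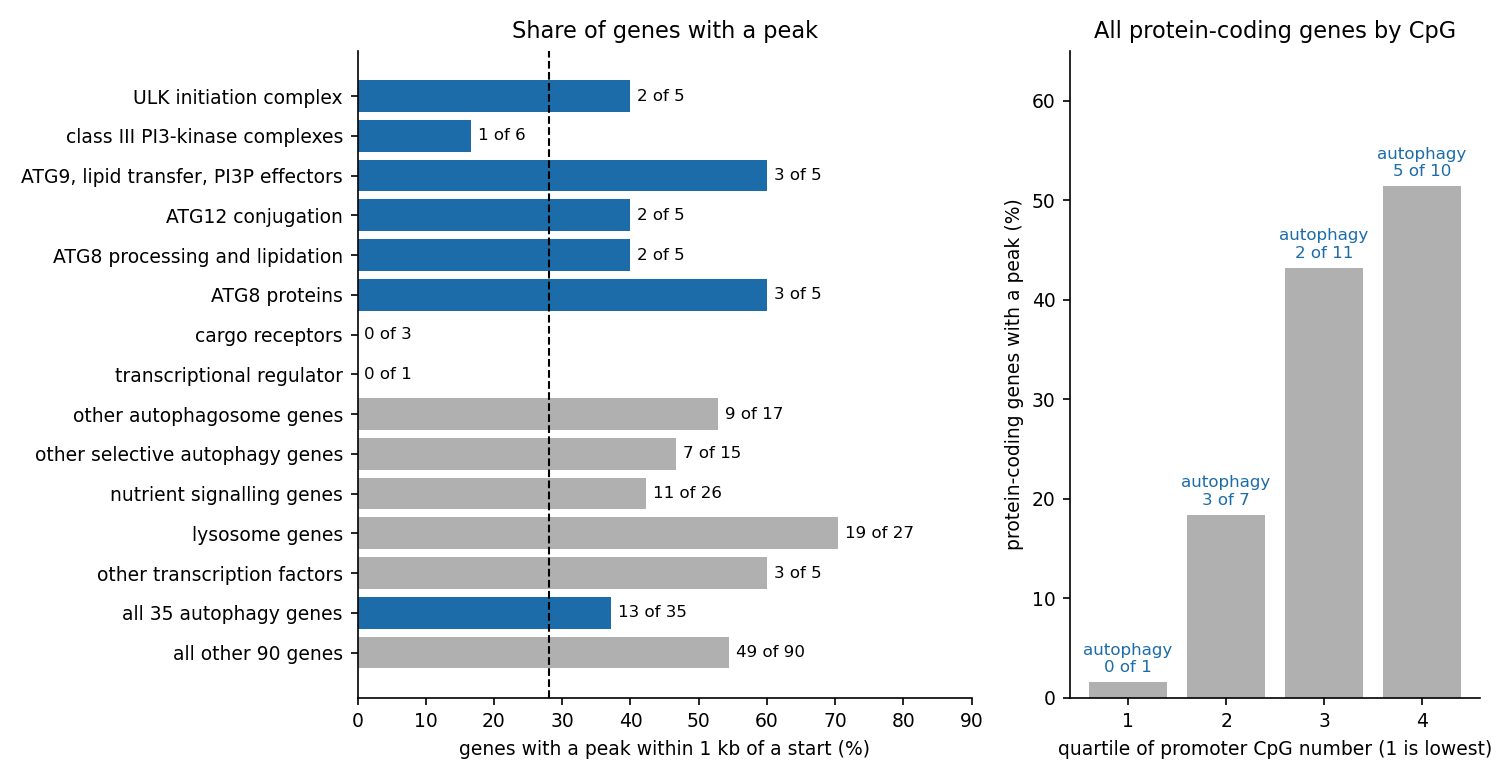
Left, the percentage of genes with a peak within 1 kb of a start, in blue for autophagy genes by role and in grey for the other lists, with a dashed line at 28.1% for all protein-coding genes and the counts beside the bars. Right, the percentage with a peak by quartile of promoter CpG number, over the 16853 protein-coding genes with a RefSeq promoter window. The number of autophagy genes bound in each quartile is above the bars, and the percentage rises from 1.57% to 51.4%.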

How the data were processed

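The authors deposited a raw read count per peak for each library, with no normalization. Per the study's methods and the submitters' processing notes, reads of 75 nt were trimmed with Trim Galore 0.6.7, mapped to mm10 with Bowtie2, filtered for low mapping quality and freed of duplicate reads with Picard 1.110. Peaks were called with HOMER 4.11.1 on the merged ChIP replicates, resized to 300 bp and filtered on blacklisted regions. The sources used here do not say how reads were assigned to peaks. Duplicate removal caps the count in a short interval, and peaks called on the counted reads were selected for high ChIP counts.

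The members and lists were chosen with earlier results of these data known. Distances ran from the nearer peak edge to a TSS of curated RefSeq transcripts (GRCm38, 45756 transcripts). Full values were given for peaks past adjusted p 0.05, the 3 highest and 3 lowest by summed ChIP count, members with 2 peaks and those just inside or outside 1 kb, with counts for the other bound members and distances for unbound ones. The relative test was the quasi-likelihood F test of edgeR 4.0.16, run in R 4.3.3 with limma 3.58.1, with TMM factors on counts at peaks and Benjamini-Hochberg adjustment over all 10069 peaks. Standard errors were derived as the absolute log2 ratio divided by the square root of the F statistic. DESeq2 1.42.0 and the other settings were alternatives. Exact binomial tests, Clopper-Pearson 95% intervals and a floor of 3 counts (Python 3.11.15, scipy 1.17.1) cover counting error only. Both tests were first run on simulated counts. Library totals outside peaks are not in the values used here, which leaves raw ratios uncorrected for depth. The p-values measure the spread between these libraries, and the lone input was taken to vary as the ChIP libraries do. Sequences were read from RefSeq's GRCm38 genome, and promoter windows from RefSeq's GRCm38.p6 table. Motifs were searched with pysam 0.24.0 for access to the genome.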

Additional observations from a re-analysis of the deposited data

How the results depend on the processing

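Of the 35 autophagy genes 13 had a peak with the distance taken from the peak centre (37.1%, beside 27.7% of protein-coding genes), 12 within 500 bp (34.3% beside 26.4%), 13 within 2 kb (37.1% beside 28.9%), 10 with overlap or upstream position required (28.6% beside 19.1%), 12 by the nearest start only (34.3% beside 25.4%) and 9 with a summed ChIP count at or above the median (25.7% beside 16.7%). With at least 10 input counts 2 genes remained (Pik3r4 and Atg3; 5.71%, beside 7.86% of protein-coding genes). The 2 peaks above the typical ratio became 0 with DESeq2's size factors in edgeR (39 above and 0 below over all peaks) and 1 without a normalization factor (102 above and 7 below). With at least 10 input counts only 2 of the 15 peaks could be tested and 0 were above, beside 58 above and 4 below over all 2427 such peaks. Robust fitting left 2 (154 above and 5 below over all peaks). DESeq2's Wald test gave no adjusted p at any of the 15, so it has no count. At Ulk2 the adjusted p moved from 0.00414 to 0.10 with the size factors and 0.00823 without a factor, and the Atg10 call was lost under both, with log2 ratios of 2.05 and 1.96 beside 2.08. The median log2 ratio over the 15 peaks was 0.20 with the size factors, 0.11 without a factor (where the median of all peaks moved from 0.02 to -0.10), -0.05 over the 2 peaks with at least 10 input counts, and 0.20 to 0.23 with 1 ChIP library left out. Setting an input of 0 to 3, chosen after seeing the data, left it at 0.22. The median raw ratio was 5.33 (mean of both replicates) with 0.5 added to each count, unlike the ratios of single peaks, which have nothing added. It fell to 3.45 when 5 rather than 0.5 was added before division, was 5.70 with 0.1, and 4.73 to 5.93 with 1 ChIP library left out. At Atg16l1 the log2 ratio of -0.25 was 0.11 without replicate 2 and -0.82 without replicate 1. The NR2F2 motif count stayed at 0 with 100 bp added to each side and in the central 200 bp, and the binomial count stayed at 0 with the null taken from the median ratio. The cause of these changes was not tested. With 1 ChIP library left out no spread between samples remains, so these are values with no test. No paired analysis was possible because the label of the input carries no replicate number. A median of 6 input counts per peak limits every ratio.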
